A study of Mus musculus with 6 samples.

Results

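Trp53, which encodes the transcription factor p53, and 9 genes that p53 is known to switch on were followed across 6 mouse livers. The 10 genes were chosen by name (Trp53, Mdm2, Cdkn1a, Ccng1, Btg2, Zmat3, Bax, Phlda3, Trp53inp1 and Gdf15), and all 10 were found among the 41838 genes of the deposited expression table. The livers came from 3 Alkbh5flox/flox mice (flox), which carry the floxed Alkbh5 gene, and 3 Alkbh5-HKO mice (HKO), whose titles read Alkbh5-CKO. ALKBH5 removes the methyl mark N6-methyladenosine from RNA, and the series asked what its loss does to liver function. Per the series text the mice were 9 weeks old, and per the labels they had normal chow. The labels speak of independent biological replicates, and the promoter that drives the deletion, the sex of the mice and the hour of collection are not named in the sources read here.

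p53 is held at a low level in unstressed cells because MDM2, itself a product of a p53 target gene, marks it for destruction. DNA damage and other stress free p53, which then binds response elements made of a pair of short half-sites and raises genes that stop the cell cycle or start cell death. Most hepatocytes of an adult liver rest outside the cell cycle, and p53 targets there are also known to respond to feeding, hormones and metabolic stress.

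Some of the genes carry a p53 half-site close to a transcription start. RefSeq promoter windows on GRCm38.p6, from 250 bases before to 50 bases after a start, were found for 8 of the 10 genes (10 windows), and none was matched for Trp53inp1 and Zmat3. The p53 half-site consensus, 10 bases long and the same on both strands, occurred without a mismatch in the windows of 5 of these 8 genes, Cdkn1a, Ccng1, Bax, Mdm2 and Trp53. Of all 32851 windows in the table, 8.36% held one. A pair of half-sites at most 13 bases apart, with up to 1 mismatch in both together, occurred in the windows of Cdkn1a and Ccng1 and in 0.627% of all windows. Cdkn1a also held a pair without a mismatch, at -73 to -42 with 12 bases between, as did 0.0731% of all windows. The Cdkn1a half-sites lay in the window of its outer start, and the window of its inner start held 0. The Bax window surrounds a start at 45466898. That is inside the Bax gene as the expression table spans it (45461695 to 45468205, minus strand), and so is the Bax half-site. Such a match is a description of the letters and not evidence of binding, and p53 elements outside these windows were not searched. The stretches are shown because the Cdkn1a and Ccng1 levels, given below, lay on opposite sides of the flox level, and both genes carry a paired match. Capitals mark the half-sites, and in Cdkn1a and Ccng1 every half-site that belongs to a pair.
Cdkn1a, chr17:29090729-29090978, plus strand, ending 1 base before the outer start: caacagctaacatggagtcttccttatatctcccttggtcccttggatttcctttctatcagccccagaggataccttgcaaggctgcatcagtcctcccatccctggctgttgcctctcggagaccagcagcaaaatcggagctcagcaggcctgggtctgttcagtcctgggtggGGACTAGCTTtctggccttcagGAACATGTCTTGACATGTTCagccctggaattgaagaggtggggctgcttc
Ccng1, chr11:40755316-40755536, minus strand: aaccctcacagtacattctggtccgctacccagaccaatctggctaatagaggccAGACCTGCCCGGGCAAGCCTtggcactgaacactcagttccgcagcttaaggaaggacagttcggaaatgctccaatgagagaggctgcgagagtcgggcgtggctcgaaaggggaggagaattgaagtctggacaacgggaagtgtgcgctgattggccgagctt
Bax, chr7:45467080-45467109, minus strand: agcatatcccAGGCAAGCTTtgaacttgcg
Mdm2, chr10:117710925-117710954, minus strand: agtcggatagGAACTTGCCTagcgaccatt
Trp53, chr11:69580274-69580303, plus strand: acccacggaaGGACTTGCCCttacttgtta

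**Figure D1:**
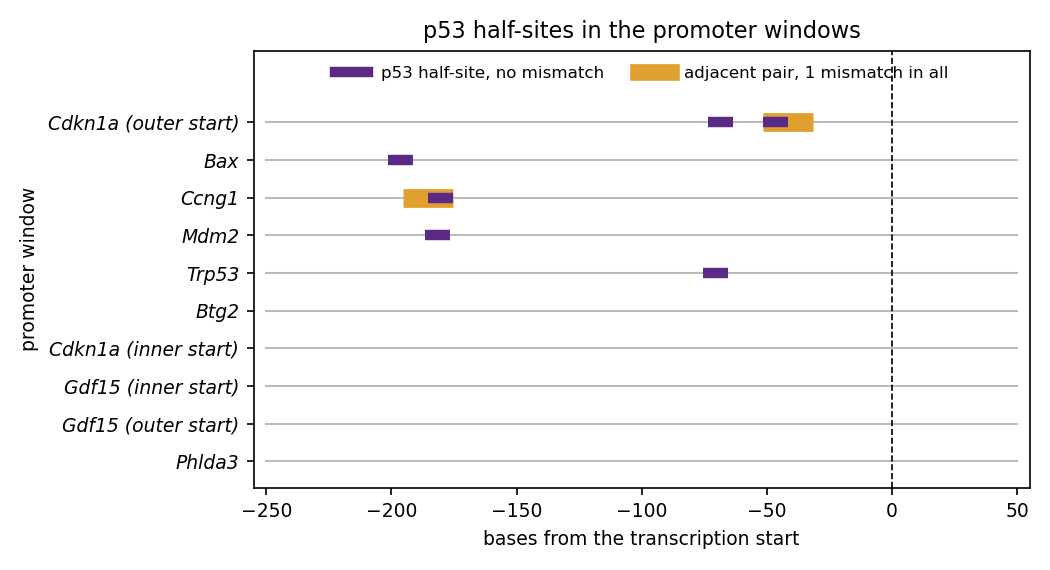
Position of p53 half-sites in the 10 promoter windows, in bases from the transcription start (x axis), with 1 line per window (y axis). Purple bars are half-sites without a mismatch and orange bars are adjacent pairs with 1 mismatch in all. The adjacent pairs lie at -51 to -32 in Cdkn1a and at -195 to -176 in Ccng1. A further Cdkn1a pair without a mismatch, at -73 to -42 with 12 bases between, is not drawn as a pair.

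Levels are in FPKM, read counts scaled by library size and by gene length, so that they can be set side by side between genes. Recovered depth was 14907384 to 17034754 reads per library. The targeted gene Alkbh5 was at 14.8 to 17.8 FPKM in the 3 flox libraries and at 0.443 to 0.508 in the 3 HKO libraries (log2 fold change -3.56, limma with Benjamini-Hochberg (BH) adjustment, adjusted p = 8.14e-05). Every log2 fold change is HKO minus flox on the log2(FPKM + 1) scale, which understates the change of low genes. Tests were run with limma on the 10453 genes with a mean of at least 1 FPKM. Of these, 28 (0.268%) passed as higher and 23 (0.22%) as lower at a BH adjusted p under 0.05, and voom on the recovered reads passed 78 and 42. The hepatocyte markers Alb, Apoa1, Ttr, Trf, Serpina1c, Cyp2e1, Cps1 and Hnf4a were present in every library, at a summed 52676 to 63275 FPKM in flox and 57475 to 61110 in HKO. By gene, 3 were higher and 5 lower in HKO, and 0 passed. Alb lay higher and Apoa1 and Hnf4a lower in every HKO library than in any flox library. Of all tested genes, 25.4% had groups that did not overlap.

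Among the members the levels were low to moderate, and Cdkn1a stood at 12.0% of its flox level in the HKO livers. Cdkn1a, Bax and Phlda3 lay lower and Ccng1 higher in every HKO library than in any flox library, whereas Trp53, Mdm2, Btg2, Zmat3, Trp53inp1 and Gdf15 overlapped between the groups. None of the 7 members that were tested passed (limma with BH adjustment, adjusted p from 0.201 to 0.869), where 0.488% of all tested genes did, and voom on the recovered reads passed 0. An unadjusted p under 0.05 was found for 1 of the 7, which was higher, and for 17% of all tested genes (8.57% higher and 8.44% lower). Cdkn1a, Phlda3 and Zmat3 had a mean under 1 FPKM and were not tested. In a fit extended to a mean of at least 0.5 FPKM, which was added after the data were seen and covers all 10 members, 0 passed (0.403% of all 12169 genes) and 3 had an unadjusted p under 0.05 (16.5%). The count of members whose groups did not overlap was 4 of 10, 3 lower and 1 higher, against 24.7% of those 12169 genes (11.9% lower and 12.8% higher). These separations are in FPKM as the authors scaled it, and that of Bax depends on the scaling. With 3 livers per group the exact two-sided permutation test cannot give a p below 0.1, the value of each such separation. In the extended fit 7 members had a negative and 3 a positive log2 fold change, with a median of -0.23 beside -0.01 over all its genes, and the 7 tested members kept their signs under TPM, median-of-ratios scaling and voom.

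**Figure D2:**
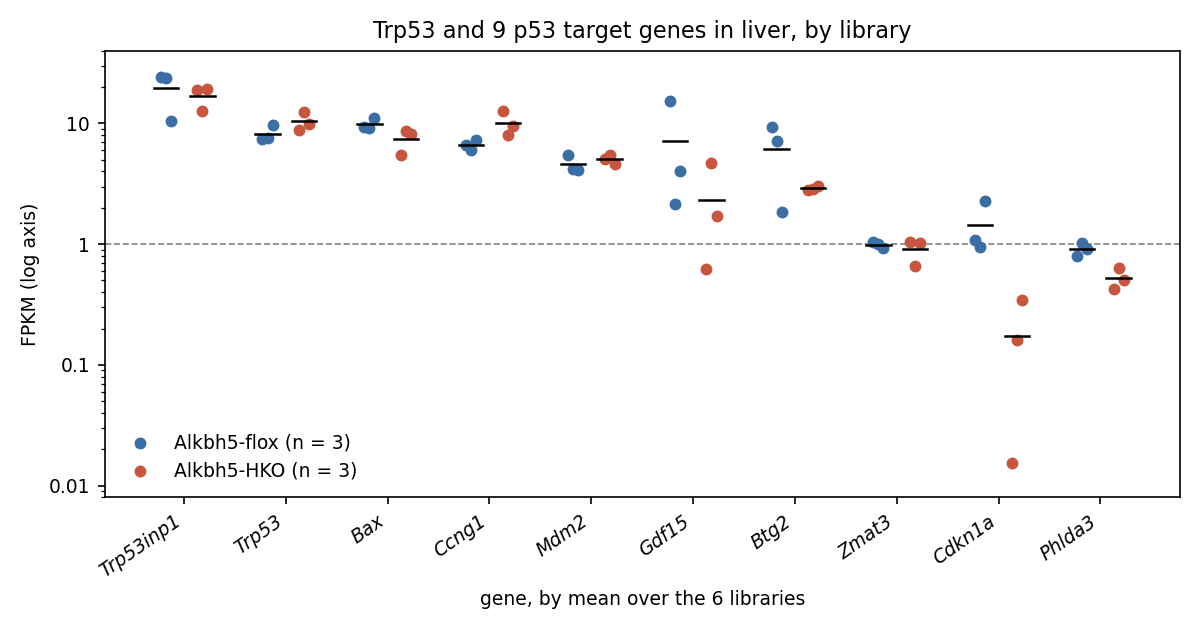
FPKM of the 10 genes (x axis, ordered by mean) on a log axis, with 1 point per library (blue flox, red HKO, 3 libraries each), a black bar at the group mean and a dashed line at 1 FPKM. Cdkn1a, Bax, Phlda3 and Ccng1 are the genes whose groups do not overlap, and Cdkn1a spans the widest range, from 0.0153 to 2.29 FPKM.

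Trp53 itself (gene 22059, chromosome 11, 69580359 to 69591873, plus strand, GRCm38.p6) was at 7.37, 7.58 and 9.69 FPKM in flox libraries 1 to 3 and at 8.82, 12.5 and 9.86 in HKO libraries 1 to 3. The HKO livers leaned higher, but HKO library 1 lay below flox library 3, so the groups overlapped. The means were 8.21 ± 1.29 and 10.4 ± 1.89 (SD, n = 3 each), with a log2 fold change of 0.30 (SE 0.17, 95% interval -0.09 to 0.70, limma with BH adjustment, adjusted p = 0.403), and 0.17 without HKO library 2. Trp53 shares 6 bases with the antisense gene Wrap53, and since the strand setting of the counting is not given, reads there cannot be assigned. Mdm2 (gene 17246), the ubiquitin ligase that holds p53 down and a p53 target in its own right, was at 5.51, 4.21 and 4.13 in flox and 5.06, 5.49 and 4.62 in HKO. Flox and HKO libraries interleaved, and its log2 fold change of 0.12 had a 95% interval of -0.22 to 0.45 (limma with BH adjustment, adjusted p = 0.7). With 1 library left out it ran from 0.06 (flox library 3) to 0.23 (flox library 1).

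Cdkn1a (gene 12575, chromosome 17, 29090979 to 29100722, plus strand) encodes p21, the inhibitor of cyclin-dependent kinases through which p53 arrests the cell cycle. It was at 1.08, 0.955 and 2.29 FPKM in flox and at 0.0153, 0.161 and 0.344 in HKO. Every HKO value lay below the lowest flox value, and the HKO library 1 value stood on 1 read. In reads these were 71, 54 and 153 against 1, 12 and 21, a sum of 278 against 34. The means were 1.44 ± 0.739 and 0.173 ± 0.165 (SD, n = 3), so the flox mean was 8.33 times the HKO mean. Of the 12169 genes in the extended fit, 0.74% had an HKO mean at or below 0.25 of the flox mean, a fraction chosen after the Cdkn1a values were seen. In that fit, which Cdkn1a entered through its flox level alone, its log2 fold change was -1.03 (SE 0.22, 95% interval -1.55 to -0.50), with an unadjusted p of 0.00227 and a BH adjusted p of 0.0992 by limma. Voom on the recovered reads, with no added 1, gave -3.52 and a BH adjusted p of 0.106. With each library left out in turn the limma value was -1.17 to -0.79, at adjusted p-values of 0.102 to 0.249. In bulk liver, fewer cells that make a transcript and less transcript per cell cannot be told apart. The values cover the whole gene and do not separate its 2 annotated starts.

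Ccng1 (gene 12450), which encodes cyclin G1, a p53 target that acts back on MDM2, went the other way from Cdkn1a. Flox livers had 6.66, 5.98 and 7.24 FPKM and HKO livers 12.6, 8.08 and 9.45, so that each HKO library lay above each flox library, with HKO library 1 the highest. The means were 6.63 ± 0.631 and 10.03 ± 2.31 (SD, n = 3; 1087 and 1727 reads), with a log2 fold change of 0.52 (SE 0.17, 95% interval 0.11 to 0.92). It was the 1 tested member with an unadjusted p under 0.05 (0.0192), and its BH adjusted p by limma was 0.201.

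Btg2 (gene 12227), an antiproliferative protein that recruits the deadenylation machinery to messages, split the flox group. It was at 9.37, 7.12 and 1.86 FPKM in flox and at 2.82, 2.88 and 3.03 in HKO. Flox library 3 was the lowest of the 6, and the other flox libraries lay above every HKO library. The log2 fold change was -0.67 (95% interval -1.73 to 0.38, limma with BH adjustment, adjusted p = 0.479). Without flox library 3 it was -1.23 with an adjusted p of 0.047 in the limma fit, the only alternative run in which Btg2 passed. Of all genes 0.671% then passed (0.393% as lower). The value shrank to -0.30 without flox library 1 (adjusted p = 0.794 by limma) and to -0.48 without flox library 2. With flox library 3 left out and genes down to 0.5 FPKM included, 0 members passed. Zmat3 (gene 22401), a zinc finger protein that binds RNA, was nearly level, at 1.05, 1.002 and 0.932 in flox and 1.04, 0.665 and 1.02 in HKO, with HKO library 2 below the rest. Its log2 fold change in the extended fit was -0.07, with a 95% interval of -0.38 to 0.24.

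Of the members tied to cell death and survival, Bax and Phlda3 lay lower in HKO livers. Bax (gene 12028), which opens the outer mitochondrial membrane during apoptosis, was at 9.41, 9.09 and 11.2 FPKM in flox and 5.50, 8.60 and 8.21 in HKO. The groups did not overlap, but the gap between the lowest flox and the highest HKO library was small, and HKO library 1 was the lowest. Its log2 fold change was -0.39 (95% interval -0.81 to 0.04, limma with BH adjustment, adjusted p = 0.334), and -0.21 without HKO library 1. Phlda3 (gene 27280), which blocks AKT from the membrane, was at 0.803, 1.03 and 0.915 in flox and 0.426, 0.632 and 0.5 in HKO. Behind these stood 19, 21 and 22 reads in flox against 10, 17 and 11 in HKO, again without overlap. The log2 fold change in the extended fit was -0.34 (95% interval -0.62 to -0.05), with an unadjusted p of 0.0275 and a BH adjusted p of 0.239 by limma, and voom gave an unadjusted p of 0.117. Trp53inp1 (gene 60599), a stress protein that aids p53 activation and autophagy, was the most abundant member, at 24.3, 23.8 and 10.6 in flox and 19.0, 12.7 and 19.4 in HKO. Flox library 3 and HKO library 2 were low and the other 4 high, so its values did not follow the groups (log2 -0.13, at a BH adjusted p of 0.869 by limma). Its sign turned when 1 of flox library 1, flox library 2 or HKO library 2 was left out (0.068, 0.05 and 0.06).

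Gdf15 (gene 23886), a secreted hormone of the TGF-beta family that lowers appetite and is raised by p53 and by the ATF4 stress response, varied widely in both groups. It was at 15.5, 2.15 and 4.04 FPKM in flox and 0.622, 4.69 and 1.71 in HKO. Flox library 1 stood far above the rest and HKO library 1 lowest, and the groups overlapped. The coefficient of variation was 99.8% in flox and 90.1% in HKO, against 15.7% and 18.2% for Trp53. Its log2 fold change of -1.13 had a 95% interval of -2.74 to 0.48 (limma with BH adjustment, adjusted p = 0.438) and was -0.45 without flox library 1.

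**Figure D3:**
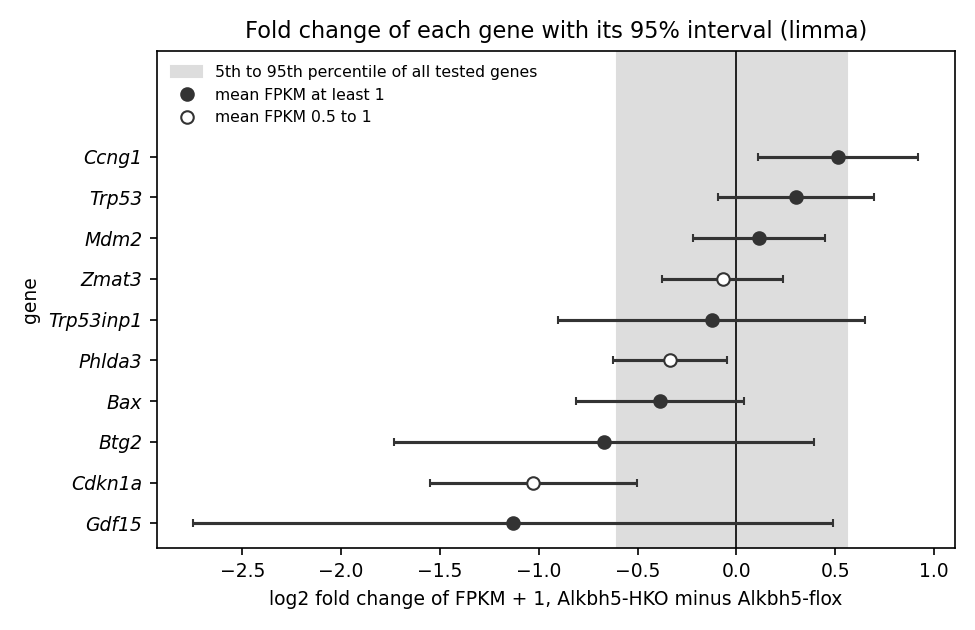
Log2 fold change of FPKM + 1, HKO minus flox (x axis), of each gene (y axis) with its 95% interval from the limma fit over 12169 genes. Filled points are genes with a mean of at least 1 FPKM, open points those at 0.5 to 1, and the grey band runs from the 5th to the 95th percentile of all tested genes (-0.60 to 0.56). Gdf15, Cdkn1a and Btg2 lie below the band, and only Cdkn1a and Phlda3 below 0 and Ccng1 above 0 have intervals that leave out 0.

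The members did not move as a unit from library to library. HKO library 1 was the lowest of the 6 for Cdkn1a, Bax, Phlda3 and Gdf15 and the highest for Ccng1. Flox library 3 was the lowest for Btg2, Trp53inp1 and Mdm2 and the highest for Cdkn1a and Bax. Several genes that respond to glucocorticoids or act early after a stimulus, picked here after their values were seen, were also low in flox library 3 beside the other flox libraries. Tat, an amino acid enzyme induced by glucocorticoids, was at 1888, 1708 and 468 FPKM in flox libraries 1 to 3. Zbtb16 was at 10.1, 16.1 and 1.23, and the early response factor Egr1 at 12.2, 16.5 and 1.59. Other genes of these kinds were not lowest in flox library 3. Mt1 was at 598, 256 and 402, Sgk1 at 5.19, 3.84 and 4.05, and Klf6 at 2.09, 0.854 and 1.51. In flox library 1, where Gdf15 was high, Jun was at 15.3 against 5.58 and 6.24 in the other flox libraries, and the p53-responsive kinase gene Plk3 at 130.5 against 43.7 and 43.4. The part of these differences between libraries in the members' values was not tested.

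**Figure D4:**
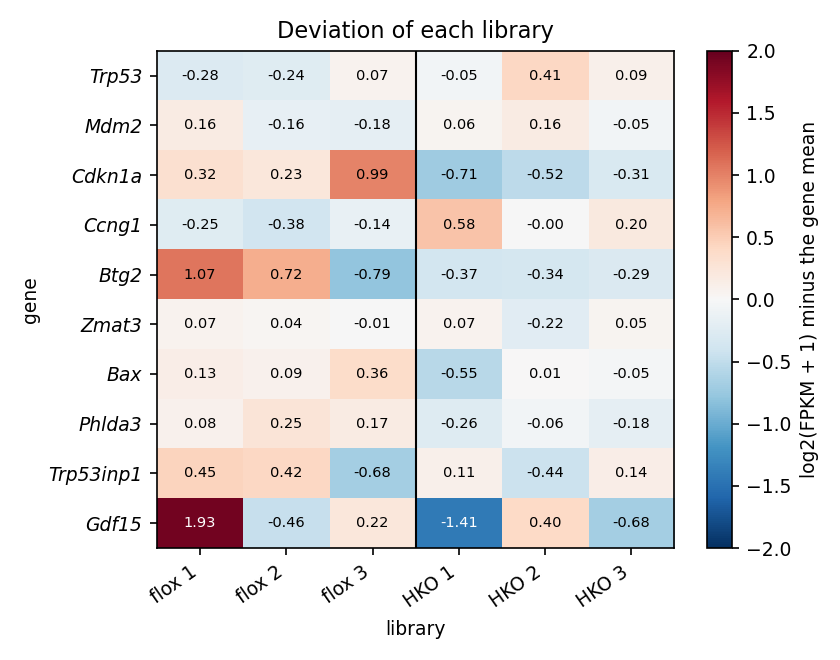
Deviation of log2(FPKM + 1) from the gene's mean over the 6 libraries (colour and printed value), with genes in rows by role and libraries in columns, flox left and HKO right of the line. Gdf15 has the widest span, from -1.41 in HKO library 1 to 1.93 in flox library 1, and flox library 3 departs from the other flox libraries in Btg2 (-0.79) and Trp53inp1 (-0.68).

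Beyond the members, 55 other genes of the p53 pathway were read from the same fit, of which 35 were tested. The split was 19 higher to 16 lower, at a median of 0.03 (log2) beside -0.02 over all tested genes. Shisa5 was the 1 gene that passed, by limma and by voom. The groups did not overlap in 10, 6 higher and 4 lower, where 25.4% of all tested genes were separated. Of those higher, Atm, Gadd45a and Polk had flox means under 1 FPKM (0.970, 0.762 and 0.834). They were tested only because of their HKO level, so their direction is no support. Shisa5, also called Scotin, a membrane protein that p53 induces in apoptosis, was at 8.32, 8.74 and 10.8 FPKM in flox and 20.5, 18.9 and 17.6 in HKO. Each HKO library was well above each flox library, and it rose by a log2 of 0.96 (SE 0.14, limma with BH adjustment, adjusted p = 0.0441). The call was lost with 5 of the 6 libraries left out in turn (adjusted p of 0.0791 to 0.186), all but flox library 3.

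By role, 7 of 13 upstream and feedback genes were tested, of which 4 were higher and 3 lower (median log2 0.03). Past the threshold were 0 by limma or by voom, and 0 had an unadjusted p under 0.05 by limma (17% of all tested genes). Mdm4, the partner of MDM2, had a log2 fold change of 0.25, the phosphatase gene Ppm1d -0.17, and the damage kinase gene Atm 0.34 (0.970 ± 0.135 and 1.51 ± 0.332 FPKM, not overlapping, limma with BH adjustment, adjusted p = 0.302). Atm, too, was tested only because of its HKO level. Among growth arrest genes Gadd45a, a stress sensor, was at 0.762 ± 0.213 and 1.94 ± 0.73 (log2 0.71, limma with BH adjustment, adjusted p = 0.165), and was tested only because of its HKO level. The sestrins, which restrain mTORC1, differed in sign, with Sesn1 at 0.40 and Sesn2 at -0.57. Among cell death genes Siva1 was at 4.49 ± 0.720 and 7.84 ± 0.825 (log2 0.69) and Ei24 at 81.9 ± 2.68 and 56.8 ± 11.2 (log2 -0.54). Their limma BH adjusted p-values were 0.0854 and 0.174. The DNA repair genes Xpc, Ddb2, Ercc5, Polh and Polk ranged from -0.21 to 0.37, where Polk, the highest, was tested only because of its HKO level. Among metabolic genes Lpin1, a phosphatidate phosphatase also induced by fasting, had the lowest value of the 35 (106 ± 61.1 and 45.8 ± 21.9, log2 -1.17, limma with BH adjustment, adjusted p = 0.323), followed by the mTORC1 inhibitor Ddit4 (log2 -0.999, adjusted p = 0.414). With 1 library left out Lpin1 ran from -1.57 without flox library 3 to -0.69 without HKO library 2, and Ddit4 from -1.51 without HKO library 3 to -0.60 without flox library 2. Gls2, the liver glutaminase, was at 102 ± 6.72 and 141 ± 16.8 (log2 0.45).

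**Figure D5:**
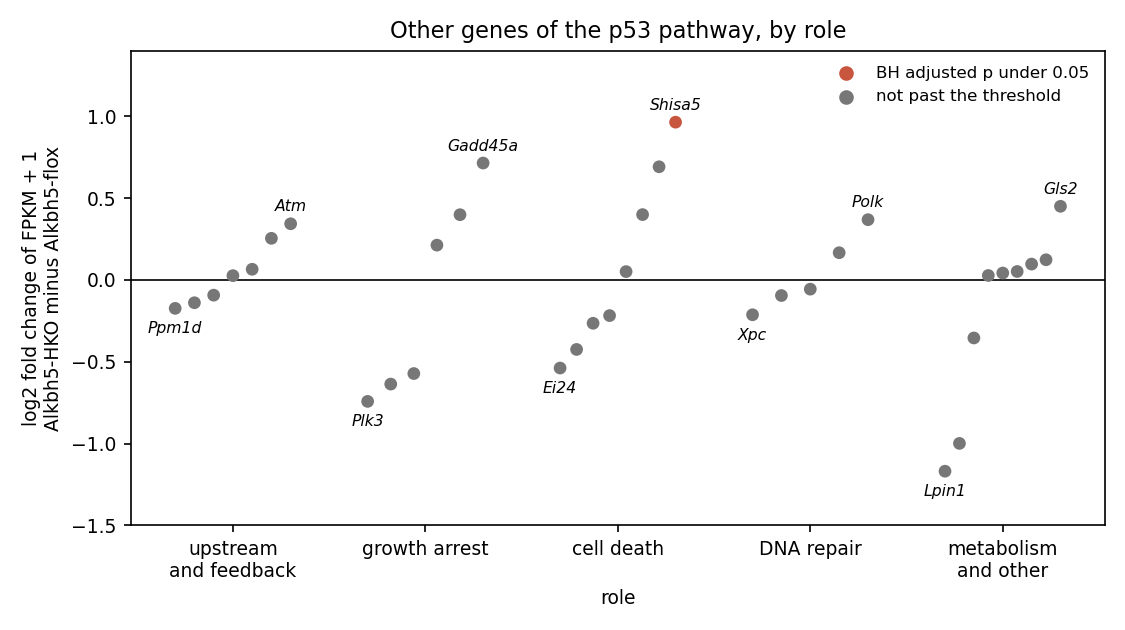
Log2 fold change of FPKM + 1, HKO minus flox (y axis), of the 35 tested other p53 pathway genes, grouped by role (x axis) and ordered within each role, with the lowest and highest of each role named. Shisa5 (0.96) is the 1 gene past the threshold, and Lpin1 (-1.17) the lowest.

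Cell cycle genes that p53 is known to lower through p21 were near the limit of detection, where 19 of 24 had a mean under 1 FPKM. Over all 24 the HKO mean was higher in 8 and lower in 16. The 5 that were tested split otherwise, 4 higher and 1 lower (median log2 0.07), and 0 passed by limma or by voom. By limma 17% of all tested genes had an unadjusted p under 0.05, and so did 1 of the 5. That was the mitotic kinase gene Aurka, at 1.58 ± 0.351 and 0.917 ± 0.0835 FPKM (log2 -0.42), which was tested only because of its flox level. Mcm3, of the replicative helicase, had the highest value at 0.36. Of 9 tested relatives of the members, 3 were higher and 6 lower, and 0 passed by limma or by voom. By limma 2 had an unadjusted p under 0.05 (17% of all tested genes). Cdkn1b, the sister inhibitor of Cdkn1a, was at 5.59, 7.66 and 8.25 in flox and 11.5, 8.55 and 8.71 in HKO. In FPKM it thus lay higher in every HKO library, opposite in sign to Cdkn1a (log2 0.38, limma with BH adjustment, adjusted p = 0.338). The log2 value was 0.23 without flox library 1 and 0.25 without HKO library 1. Flox library 3 had 325 Cdkn1b reads and HKO library 3 had 314, at library sizes of 1.08 and 1.01 of the summed reads. Scaled by the summed reads the Cdkn1b groups would overlap, so the separation depends on the scaling. Trp53inp2, the relative of Trp53inp1 that acts in autophagy, was at 78.9, 102 and 48.4 in flox and 25.9, 26.8 and 42.5 in HKO. It was lower in every HKO library (log2 -1.21), at a BH adjusted p of 0.123 by limma.

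Of 13 tested BCL2 family and caspase genes, the kin and partners of Bax, 8 lay higher and 5 lower, at a median of 0.26 on the log2 scale. By limma and by voom 0 passed, 6 had an unadjusted p under 0.05 (17% of all tested genes), and in 7 the groups did not overlap (25.4%). The initiator caspase gene Casp8 was lower in each HKO library, at 11.6 ± 1.26 and 7.92 ± 0.0357 FPKM (log2 -0.50, limma with BH adjustment, adjusted p = 0.119). Mcl1, which holds BAX in check, was at 28.5 ± 1.504 and 39.6 ± 6.33 (log2 0.45). Of 9 tested ATF4 stress response genes, another known route to Gdf15, 3 were higher and 6 lower and 0 passed by limma or by voom, with 5 at an unadjusted p under 0.05 (17% of all tested genes). Over all 15 genes of that list the HKO mean was higher in 7 and lower in 8. The extremes were asparagine synthetase Asns (log2 1.63, and 1.07 without flox library 3) and the hormone Fgf21 (log2 -1.38), whose HKO mean was 0.987 FPKM. Among 8 immediate early and 9 glucocorticoid-responsive genes tested, 0 passed by either tool. By limma 1 of each had an unadjusted p under 0.05 (17% of all tested genes). Klf6 (0.59) and Jun (-0.88) bounded the first list and Lcn2 (0.89) and Tat (-0.98) the second. With 1 library left out Klf6 was as low as 0.39 (flox library 2), Jun as near 0 as -0.47 (flox library 1), Lcn2 from 0.43 (flox library 3) to 1.49 (flox library 1) and Tat from -1.62 (flox library 3) to -0.62 (flox library 1).

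The summed level of 3 marker lists of other cell types did not overlap between the groups. All 5 tested red cell markers of 7 were lower in each HKO library, and Hbb-bt passed (limma with BH adjustment, adjusted p = 0.0373), at a summed 352 to 674 FPKM in flox and 105 to 209 in HKO. The red cell membrane gene Slc4a1 was at 0.107 to 0.19 in flox and at 0 in HKO. The T and NK cell list of 8 was at a summed 2.18 to 3.91 in flox and 5.24 to 7.16 in HKO, and 7 of its genes had a higher and 1, Cd4, a lower HKO mean. Its 3 tested genes had a mean of at least 1 FPKM in HKO only, so their direction is no support. The cholangiocyte list of 6 was at 26.2 to 36.4 and 20.7 to 23.3, nearly all of it Spp1, the 1 marker tested. Over all 6 the HKO mean was higher in 4 and lower in 2, so the sum speaks for Spp1 alone. The Kupffer cell list of 8 overlapped (summed 156 to 240 and 169 to 296), as did the sinusoidal endothelial list of 8 (22.6 to 29.9 and 23.7 to 26.8). Stellate cell markers were at 28.8 to 53.3 and 52.7 to 64.6, B cell markers at 2.18 to 3.89 and 1.88 to 4.06, and neutrophil markers at 0.892 to 9.93 and 2.62 to 3.53, the highest in flox library 1. The part of these cells in the members' values was not tested.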

How the data were processed

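Poly(A) RNA of 6 livers was sequenced in read pairs, per the labels' protocols. Per the series text, the authors aligned the pairs with HISAT2 2.0.5 to GRCm38.p6, and featureCounts 1.5.0-p3 gave the counts. CASAVA and DESeq2 1.20.0 are listed besides in the submitters' processing notes. The sources read here do not name the annotation, the strand setting or the handling of multiple matches. The deposited values are FPKM as the authors made them. Products of FPKM and gene length were whole multiples of 1 step (tolerance 0.001) for 100% of values above 0, so the read counts could be recovered. The library size behind the FPKM was between 0.925 and 1.08 of the summed reads. Libraries differ in their mitochondrial share (3.66% to 5.67%), and no batch is labelled.

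The test was limma 3.58.1 in R 4.3.3 (trend and robust, statmod 1.5.0) on log2(FPKM + 1), HKO minus flox, over genes with a mean of at least 1 FPKM, with BH adjustment at 0.05, checked first on simulated reads. The alternatives are named in the closing section. Figures used matplotlib 3.10.9 under Python 3.11.15. The members and lists were chosen with earlier results of these data known. The lists held 219 symbols, all found, 2 of them under an older symbol (Rfwd2 for Cop1, Trf for Tf). Named genes were the 10 members, Alkbh5, each other p53 gene that passed with the 2 highest and 2 lowest, and the highest and lowest of each context list. Any other gene was named after its values were seen. Some genes that the rule names are not reported here. Promoter windows are from RefSeq.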

Additional observations from a re-analysis of the deposited data

How the results depend on the processing

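Alternatives were a pseudocount of 0.1 or 5, no filter or a mean of at least 5 FPKM, median-of-ratios scaling, TPM, eBayes without trend and robust, the replicate number as a block, voom, and each library left out. The mean of at least 0.5 FPKM, with limma, with voom and with libraries left out, was chosen after the data were seen. Of the members tested 0 passed under each (7 in most, 4 at a mean of at least 5 FPKM, 8 without HKO library 2, and 10 with no filter or a mean of at least 0.5 FPKM), except that with a library left out the count was 0 to 1 (Btg2 without flox library 3), and 0 with that library left out and a mean of at least 0.5 FPKM. The members' median was -0.30 to 0.07 with a library left out and 0.09 at a mean of at least 5 FPKM. With a library left out at a mean of at least 0.5 FPKM, the median of all 10 was -0.32 to -0.18. Trp53inp1 (-0.13) ranged from -0.50 to 0.068, turning to 0.068, 0.05 and 0.06 without flox library 1, flox library 2 and HKO library 2. Of other p53 genes 0 passed with a pseudocount of 0.1, no filter, TPM or the replicate block, and 0 to 1 with a library left out. Over all genes 51 passed, against 1 with no filter, 9 with the replicate block, 120 with voom (65% of them higher, against 54.9%), 139 with voom at a mean of at least 0.5 FPKM, and 1 to 70 with a library left out. Libraries with the same replicate number did not deviate together (correlations 0.153, -0.145 and -0.0514). The labels do not say whether the numbers pair animals, and these correlations cannot settle it. The block changed no member's call. The reads behind Phlda3 and Cdkn1a limit what their tests can show.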

Other observations

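A few genes of the lists lay below the mean of 1 FPKM and so were not tested, but had groups that did not overlap in FPKM. They were picked after their values were seen. Of the 12169 genes with a mean of at least 0.5 FPKM, 24.7% had groups that did not overlap. Chek2, a DNA damage kinase upstream of p53, had 23, 12 and 16 reads in flox and 61, 39 and 43 in HKO. Its means were 0.386 FPKM in flox and 1.04 in HKO. It is among those 12169 genes only because of its HKO level, so its direction is no support. Phlda2, the relative of Phlda3, had 1, 0 and 1 reads in flox and 6, 18 and 6 in HKO. Its means were 0.0378 FPKM in flox and 0.54 in HKO, so it is not among those 12169 genes and the share does not cover it. Ccnb2, a mitotic cyclin, had 24, 23 and 21 reads in flox and 11, 13 and 9 in HKO. Its means were 0.957 FPKM in flox and 0.432 in HKO. It is among those 12169 genes only because of its flox level, so its direction is no support. Bcl2l11, which encodes the BH3-only protein BIM, was at 0.641 ± 0.0835 FPKM in flox and 1.12 ± 0.389 in HKO (SD, n = 3). Its separation was slight, at 0.7295 FPKM in flox library 3 and 0.7316 in HKO library 3. Bcl2l11 reads were 102, 98 and 134 in flox and 271, 233 and 123 in HKO, so this separation depends on the scaling.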
